A study of Homo sapiens with 6 samples.

Results

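Sestrins, DDIT4 and the subunits of AMPK are the proteins through which a stressed cell holds back mTORC1, and their transcripts were measured here in COV434 cells exposed to 4HC. The 10 genes SESN1, SESN2, SESN3, DDIT4, PRKAA1, PRKAA2, PRKAB1, PRKAB2, PRKAG1 and PRKAG2 were picked out by symbol with no measured value in the rule, though with earlier results of these data known, and all 10 were found among the 16798 genes of the gene table and passed the filter on low counts. COV434 is a human ovarian tumour line that the labels describe as granulosa cells. Bulk RNA-seq was available for 3 control samples, labelled wild type, and for 3 samples treated for 24 h with 15 µM 4HC, the active metabolite of the alkylating drug cyclophosphamide, which the labels of the treated samples call CTX. Both groups were of the same line in the same serum-containing medium, and a vehicle for the control samples was not named in the sources used here. The labels did not say whether the samples of a group came from separate cultures, so p-values measure the spread between these samples, which may be technical.

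As background, mTORC1 is the kinase complex that drives protein synthesis and growth when amino acids, growth factors and energy are sufficient. Sestrins bind the GATOR2 complex and thereby restrain the Rag GTPases that bring mTORC1 to the lysosome, and they also favour activation of AMPK. DDIT4, also called REDD1, restrains mTORC1 through the TSC complex, and AMPK, a heterotrimer of a catalytic alpha, a scaffolding beta and a nucleotide-binding gamma subunit, phosphorylates TSC2 and RPTOR when AMP rises. SESN1, SESN2, PRKAB1 and DDIT4 are known to be induced by DNA damage. SESN2 and DDIT4 are also induced by ATF4, and DDIT4 by HIF1 and glucocorticoids.

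The libraries held between 16133786 and 16702316 expected counts, and the first principal component, which separated the groups, held 71.8% of the variance. The labelled cell type was only partly borne out, since the granulosa markers FOXL2, FSHR, CYP19A1, STAR, NR5A1 and GATA4 had between 0 and 3 counts in every sample, whereas WT1 had 218 ± 1.44 CPM in control (SD, n = 3) and 171 ± 2.59 CPM in 4HC and fell by 0.35 on the log2 scale (adjusted p = 8.81e-12, edgeR). AMH, with 5.19 ± 1.37 and 5.27 ± 1.04 CPM, and INHA, with 0.797 ± 0.348 and 0.611 ± 0.0676 CPM, were the other tested markers of that list and did not pass the test. Of the SWI/SNF ATPases, SMARCA2 had 0 to 4 counts per sample and SMARCA4 had 25.2 ± 2.80 CPM in control. Of 10 markers of other ovarian cells, 6 could be tested, with adjusted p-values of 0.265 to 0.643 in edgeR. The endothelial markers PECAM1 and VWF, the epithelial marker EPCAM and the germ cell marker DDX4 had at most 3 counts per sample, and the stromal marker DCN stood at 48.0 ± 3.24 CPM in control and 46.8 ± 3.75 CPM in 4HC. The epithelial marker KRT8, the oocyte marker ZP3, the leukocyte markers PTPRC and CD68 and the stromal marker COL1A1 also passed the filter on low counts. Low counts of EPCAM and DDX4 therefore do not show that epithelial or germ cell transcripts were absent.

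SESN1, SESN2 and PRKAB1 rose in 4HC, none of the 10 genes fell, and 7 did not pass the test (edgeR quasi-likelihood test, Benjamini-Hochberg adjusted over the 12368 genes tested, threshold 0.05). The background was broad, since 19.2% of all tested genes were higher in 4HC by the same criterion, 17.1% were lower and 36.4% changed in either direction. The size of the 3 rises was less common than the call itself. Only 1.41% of the tested genes had a larger log2 fold change than SESN1, 1.56% than PRKAB1 and 2.62% than SESN2. No member reached a fold change of 2, while 4 members, SESN1, SESN2, PRKAB1 and PRKAA1, had an unadjusted p under 0.05. In the edgeR fit, 142 genes, or 1.15% of all tested genes, passed both limits. With DESeq2, the tool that the study named, 148 genes passed them upward and 21 downward. The study stated the same limits for its DEGs but reported far more of them. The reason for this gap was not tested. Whether the members were among the DEGs of the study therefore cannot be told from either fit. The median log2 fold change of the 10 members was 0.04, against 0.0047 over all tested genes. In 5 members, SESN1, SESN2, PRKAB1, PRKAA1 and SESN3, the 3 control and the 3 treated samples did not overlap in CPM, which was the case for 45.3% of all tested genes.

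To show the sequence next to which these 3 genes start, the RefSeq windows from 250 bases before to 50 after their annotated starts are given here on the transcribed strand (GRCh38.p14). SESN1 has 3 such starts, and each line is named by the RefSeq transcript whose start in GENCODE 29 lies nearest. The 3 windows of SESN1 lie on the minus strand at chr6:109094797-109095096, chr6:109009503-109009802 and chr6:109008939-109009238. Those of SESN2 and PRKAB1 lie on the plus strand at chr1:28259268-28259567 and chr12:119667883-119668182.
SESN1, NM_014454: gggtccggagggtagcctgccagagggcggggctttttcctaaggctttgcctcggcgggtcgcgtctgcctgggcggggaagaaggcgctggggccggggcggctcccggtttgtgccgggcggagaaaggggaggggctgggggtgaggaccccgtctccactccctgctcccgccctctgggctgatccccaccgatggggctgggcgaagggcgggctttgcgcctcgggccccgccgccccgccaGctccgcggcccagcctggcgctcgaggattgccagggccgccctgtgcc
SESN1, NM_001199933: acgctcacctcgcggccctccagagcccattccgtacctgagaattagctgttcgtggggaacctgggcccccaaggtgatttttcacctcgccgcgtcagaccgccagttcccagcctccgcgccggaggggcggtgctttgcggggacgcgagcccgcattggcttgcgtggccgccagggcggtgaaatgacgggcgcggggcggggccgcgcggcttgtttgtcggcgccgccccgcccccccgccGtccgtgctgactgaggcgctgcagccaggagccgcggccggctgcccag
SESN1, NM_001199934: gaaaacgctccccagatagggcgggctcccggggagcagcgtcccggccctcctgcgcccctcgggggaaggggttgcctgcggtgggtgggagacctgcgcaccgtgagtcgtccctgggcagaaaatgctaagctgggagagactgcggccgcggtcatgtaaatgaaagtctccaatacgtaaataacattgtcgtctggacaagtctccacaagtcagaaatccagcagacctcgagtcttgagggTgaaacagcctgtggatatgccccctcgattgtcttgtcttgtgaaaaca
SESN2: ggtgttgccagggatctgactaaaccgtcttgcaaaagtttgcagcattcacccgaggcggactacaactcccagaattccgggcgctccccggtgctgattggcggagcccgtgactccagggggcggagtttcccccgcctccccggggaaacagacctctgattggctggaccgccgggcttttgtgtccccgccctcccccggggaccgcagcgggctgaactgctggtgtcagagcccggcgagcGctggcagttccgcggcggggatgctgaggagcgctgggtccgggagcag
PRKAB1: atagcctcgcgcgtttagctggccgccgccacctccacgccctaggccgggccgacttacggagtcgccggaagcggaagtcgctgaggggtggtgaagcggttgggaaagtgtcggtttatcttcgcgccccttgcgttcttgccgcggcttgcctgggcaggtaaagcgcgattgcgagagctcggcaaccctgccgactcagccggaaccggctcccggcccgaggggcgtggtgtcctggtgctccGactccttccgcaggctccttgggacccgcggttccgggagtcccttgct

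The capital letter in each window marks the annotated start base. The G and C content was 75.0%, 72.3% and 58.0% in the 3 SESN1 windows in the order given, 67.0% in the SESN2 window and 67.7% in the PRKAB1 window, against a median of 58.7% (quartiles 47.0% and 68.0%) over the 35116 windows of all genes.

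Among the sestrins, SESN1, which binds GATOR2 and has also been linked to the repair of oxidised peroxiredoxins, was the member with the largest change. Its TMM-normalized CPM was 86.9, 89.9 and 90.1 in the 3 control samples and 162, 165 and 164 in the 3 treated samples. Every treated sample was far above every control sample, and the samples of a group lay within a few CPM of each other. The group means were 89.0 ± 1.79 and 164 ± 1.77 CPM (SD, n = 3 each), a 1.84-fold rise with a 95% interval of 1.74 to 1.94 (log2 fold change 0.88, SE 0.039, adjusted p = 3.98e-25, edgeR). The deposited annotation places SESN1 on chromosome 6 from 108984309 to 109094846 (GRCh38).

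SESN2, the leucine-binding sestrin and the one best known as a stress-induced gene, rose with a somewhat smaller fold. It had 79.0, 88.9 and 81.2 CPM in control and 138, 135 and 128 CPM in 4HC. The lowest treated sample was again well above the highest control sample. The means were 83.0 ± 5.21 and 133 ± 5.39 CPM, a 1.61-fold rise with an interval of 1.51 to 1.71 (log2 fold change 0.68, SE 0.044, adjusted p = 1.06e-18, edgeR). SESN3, the sestrin known as a FOXO target, went the other way without passing the test. It had 11.1, 10.3 and 10.1 CPM in control and 8.39, 9.62 and 10.1 CPM in 4HC, and the highest treated sample nearly reached the lowest control sample. Its log2 fold change was -0.16 (SE 0.10, interval -0.37 to 0.04, adjusted p = 0.216, edgeR), so a fall to 0.773 of the control level and a rise to 1.03 times that level both lay within the interval. Without 4HC replicate 1, its lowest sample, the log2 fold change was -0.0957.

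DDIT4, the TSC-dependent brake on mTORC1, differed by less than the spread between samples allowed to call. Its values were 73.2, 71.8 and 66.1 CPM in control and 72.7, 71.9 and 77.8 CPM in 4HC, and the groups overlapped. The log2 fold change was 0.08 (SE 0.048, adjusted p = 0.220, edgeR), and the 95% interval of the fold, 0.986 to 1.13, held no rise of the size seen in SESN1, SESN2 or PRKAB1. The log2 fold change was 0.0318 without control replicate 3 and 0.0396 without 4HC replicate 3.

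**Figure D1:**
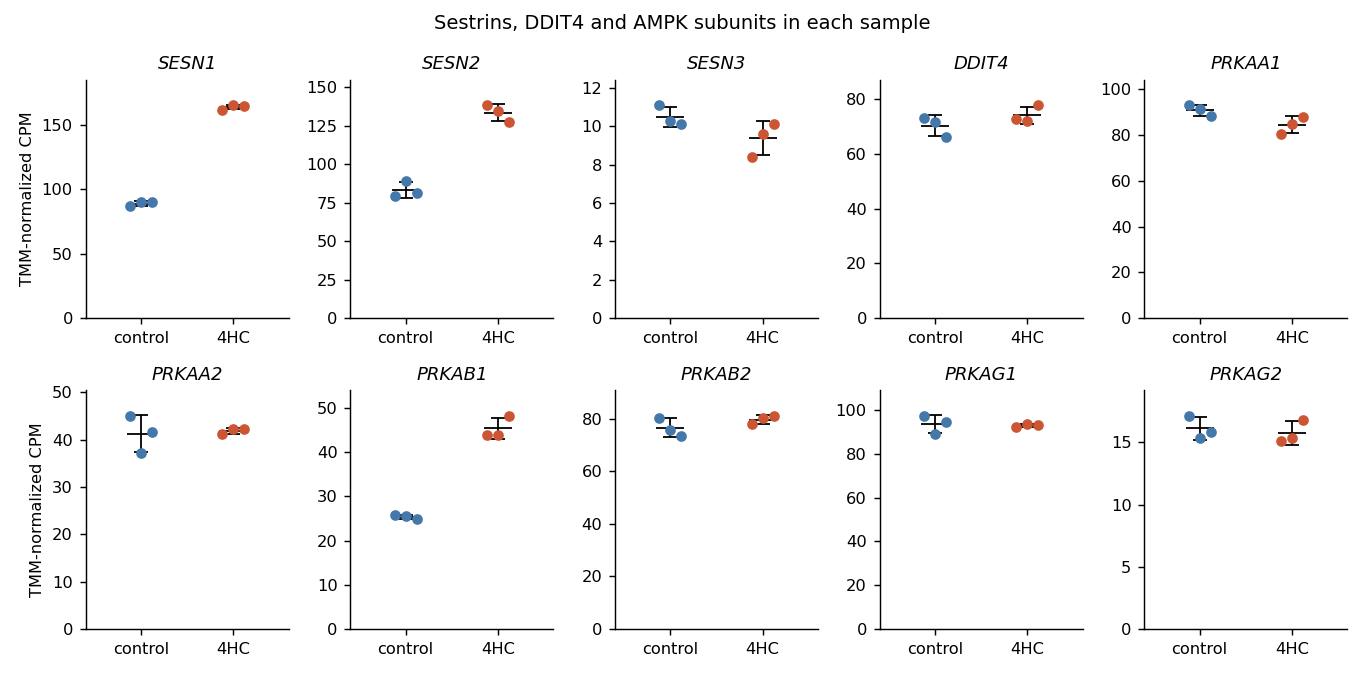
TMM-normalized CPM (vertical axes, each from 0) of the 10 genes in the 3 control samples (blue) and the 3 samples treated with 4HC (orange), with the mean and SD of each group in black. SESN1, SESN2 and PRKAB1 show 2 clearly separate groups, whereas the points of the other 7 genes lie within or close to the range of the other group.

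The AMPK subunits did not move as a group, and PRKAB1 was the subunit that rose. PRKAB1 encodes beta-1, which carries the glycogen-binding module and bridges alpha and gamma. It stood at 25.7, 25.6 and 24.9 CPM in control and at 43.9, 44.0 and 48.2 CPM in 4HC. The 3 control samples were nearly equal and the treated samples lay at well over 1.5 times their level. The means were 25.4 ± 0.461 and 45.4 ± 2.44 CPM, a 1.79-fold rise with an interval of 1.65 to 1.94 (log2 fold change 0.84, SE 0.059, adjusted p = 4.91e-17, edgeR). PRKAB2, which encodes the other beta subunit, did not pass the test. It had 80.4, 75.9 and 73.2 CPM in control and 77.9, 80.1 and 81.0 CPM in 4HC, with overlapping groups and a log2 fold change of 0.06 (interval -0.03 to 0.15, adjusted p = 0.328, edgeR), which was 0.0931 without control replicate 1 and 0.0272 without control replicate 3.

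Of the catalytic subunits, PRKAA1, encoding alpha-1, was 93.0, 91.3 and 88.1 CPM in control and 80.6, 85.0 and 88.0 CPM in 4HC. The groups just failed to overlap, with the highest treated sample barely below the lowest control sample. The log2 fold change of -0.10 (SE 0.044) had an unadjusted p of 0.0226 and an adjusted p of 0.0595 in edgeR, short of the threshold. It passed under 3 of the 15 alternatives, namely DESeq2's size factors within edgeR, a minimum of 10 counts in every sample, and the fit without 4HC replicate 3, where it was -0.13 (adjusted p = 0.0250). PRKAA2, encoding alpha-2, ranged from 37.1 to 45.0 CPM in control and from 41.2 to 42.2 CPM in 4HC, with a log2 fold change of 0.02 (interval -0.10 to 0.14, adjusted p = 0.811, edgeR). Among the gamma subunits, which sense AMP and ATP, PRKAG1 ranged from 89.1 to 97.3 CPM in control and from 92.2 to 93.7 CPM in 4HC (log2 fold change -0.01, interval -0.10 to 0.08, adjusted p = 0.869, edgeR). PRKAG2 ranged from 15.4 to 17.1 and from 15.1 to 16.8 CPM (log2 fold change -0.03, interval -0.20 to 0.13, adjusted p = 0.785, edgeR). The treated samples of both gamma genes lay inside or across the control range. The sign of the near-zero changes of PRKAA2, PRKAG1 and PRKAG2 turned under some alternatives. The third gamma gene, PRKAG3, was absent from the gene table, so it could not be tested.

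**Figure D2:**
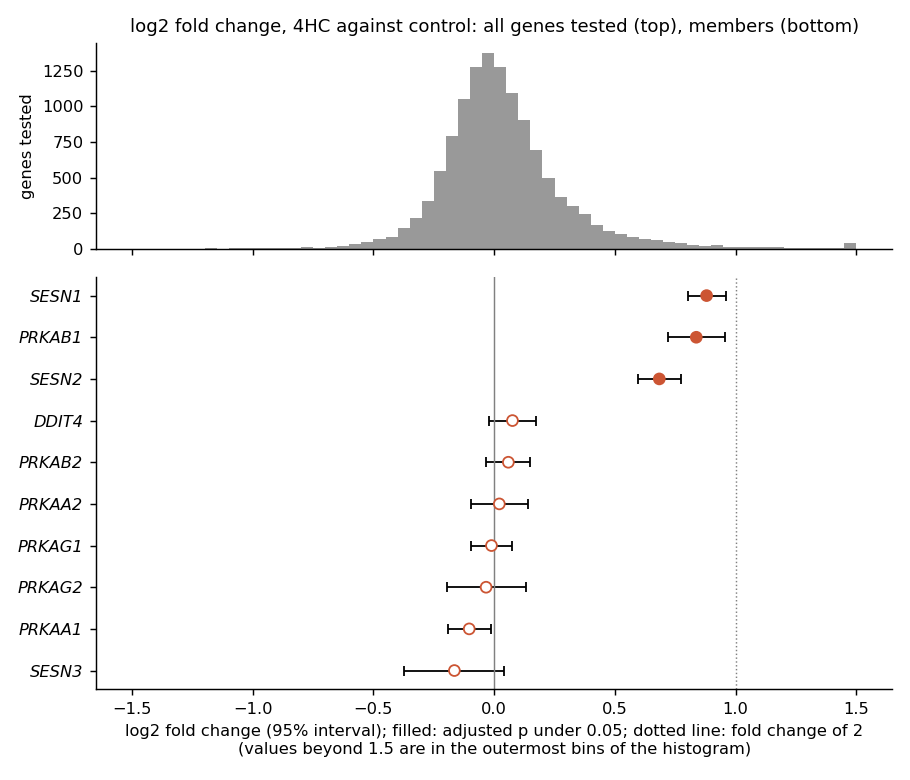
Top, number of the 12368 tested genes by log2 fold change of 4HC against control. Bottom, log2 fold change of the 10 members with its 95% interval, filled where the adjusted p was under 0.05. SESN1 (0.88), PRKAB1 (0.84) and SESN2 (0.68) lie in the right tail of the histogram and left of the dotted line at a fold change of 2, and the 7 others lie between -0.16 and 0.08.

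To compare levels between genes, the deposited TPM values, which are scaled to transcript length, were ordered. In control, PRKAG1 was highest with 106 ± 5.38 TPM, followed by DDIT4 with 75.6 ± 3.67, SESN2 with 40.9 ± 2.32 and SESN1 with 29.9 ± 0.620 TPM. PRKAA1 (28.7 ± 0.638 TPM) followed SESN1, and these were the only neighbours in the control order whose samples overlapped. PRKAB2 stood at 23.1 ± 0.981, PRKAB1 at 20.5 ± 0.255, PRKAG2 at 10.8 ± 0.980, PRKAA2 at 7.08 ± 0.718 and SESN3 at 1.77 ± 0.0866 TPM. In 4HC the order at the top and bottom was the same, and PRKAB1, with 36.4 ± 1.97 TPM, stood above PRKAA1 (26.7 ± 1.23 TPM) and PRKAB2 (24.2 ± 0.380 TPM) rather than below them. SESN1, at 55.6 ± 0.272 TPM in 4HC, was then apart from its lower neighbour, and no neighbours overlapped.

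Within the beta subunits the balance between paralogs turned. PRKAB1 made up 46.2%, 47.5% and 47.5% of the summed beta TPM in the control samples and 59.9%, 59.2% and 61.2% in the treated samples. It was thus the minor beta transcript in every control sample and the major one in every treated sample. The summed beta TPM was 43.6 ± 1.22 in control and 60.6 ± 2.29 in 4HC. The log2 ratio of PRKAB1 to PRKAB2 rose by 0.76, which with 3 samples against 3 had the smallest p that an exact two-sided permutation test allows (p = 0.1, adjusted p = 0.167 over 5 ratios). The alpha sum was 35.8 ± 1.20 and 33.8 ± 1.28 TPM and the gamma sum 117 ± 6.33 and 115 ± 0.590 TPM. PRKAA1 made up 80.2% ± 1.45 of alpha in control and 78.8% ± 0.649 in 4HC, and PRKAG1 90.8% ± 0.374 and 91.1% ± 0.393 of gamma. Neither the alpha ratio (difference -0.12, exact permutation p = 0.2) nor the gamma ratio (0.04, exact permutation p = 0.5) separated the groups.

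The summed sestrin TPM went from 72.6 ± 2.64 to 123 ± 2.52. SESN2 made up 56.3% ± 1.20 of it in control and 53.3% ± 1.24 in 4HC, and SESN1 41.2% ± 1.07 and 45.4% ± 1.10. The log2 ratio of SESN1 to SESN2 was 0.22 higher in 4HC, and the groups did not overlap (exact permutation p = 0.1, adjusted p = 0.167). SESN3 made up 2.44% ± 0.201 of the sestrin sum in control and 1.28% ± 0.137 in 4HC, and its log2 ratio to SESN2 was lower by 0.84 (difference -0.84, exact permutation p = 0.1, adjusted p = 0.167). As no p under 0.1 was possible with these group sizes, none of the 5 ratios could pass a threshold of 0.05.

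**Figure D3:**
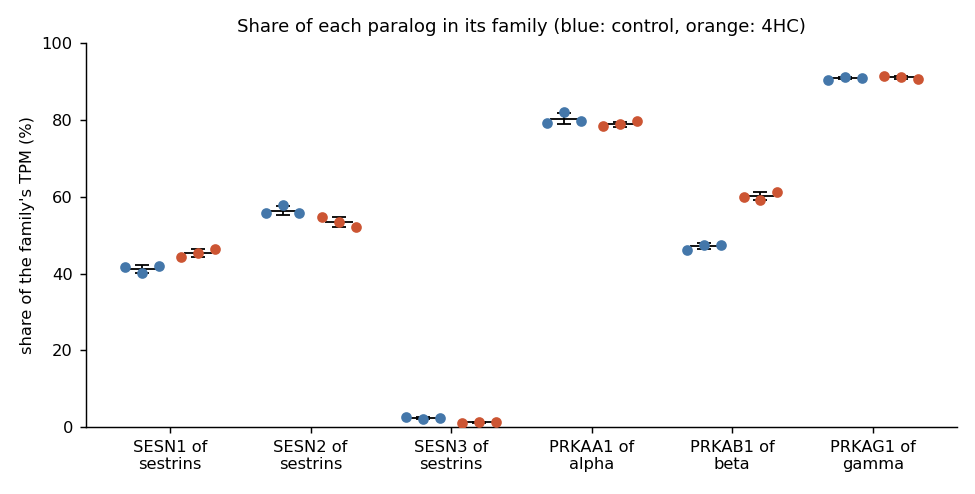
Share in percent (vertical axis) of the summed TPM of each family held by SESN1, SESN2, SESN3, PRKAA1, PRKAB1 and PRKAG1 in the 3 control (blue) and 3 treated (orange) samples, with mean and SD. PRKAB1 goes from 47.1% to 60.1% of the beta subunits, while the shares of PRKAA1 and PRKAG1 stay between 78.2% and 81.9% and between 90.4% and 91.4%.

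The transcript table held 52 transcripts of the 10 genes, of which 29 could be tested, and 4 of them rose and 0 fell (edgeR, adjusted over 42216 transcripts). Of these 4, 2 are entries that share the same SESN2 reads and are 1 measurement. Over all transcripts tested, 1.29% changed in either direction, far fewer than for genes. RSEM divides reads among transcripts that share exons, so transcript counts are less certain than gene counts. In SESN1, the transcript NM_001199933 rose. It had 1140, 1247 and 1198 expected counts in control and 2428, 2471 and 2424 in 4HC (log2 fold change 1.03, interval 0.93 to 1.13, adjusted p = 0.00108, edgeR). NM_014454, which starts 85264 bases further upstream, had 261, 213 and 296 counts in control and 252, 207 and 261 in 4HC, with overlapping groups (log2 fold change -0.10, interval -0.50 to 0.30, adjusted p = 0.983, edgeR). NM_001199934 had 8.77 counts in 1 control sample and 0 in the other 5 samples.

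The ratio of NM_001199933 to NM_014454 was 4.37, 5.87 and 4.05 in the control samples and 9.62, 11.9 and 9.29 in the treated samples. All treated ratios were above all control ratios (exact permutation p = 0.1, the smallest possible). The test of whether a transcript changed differently from the rest of its gene, added after these values were seen, gave an unadjusted p of 0.0148 for NM_014454 and did not pass after adjustment over all transcripts (adjusted p = 1.00, edgeR), a call that 0.0673% of tested transcripts reached. A different response of the 2 SESN1 starts was therefore not established at the transcript level.

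Both transcripts have 10 exons and differ in the first, and the start of the protein differs with it. NM_014454 encodes 551 residues and NM_001199933 492, and the last 1376 coding bases are identical between them. Their first 60 coding bases are shown because they set the isoforms apart (GENCODE 29).
NM_014454: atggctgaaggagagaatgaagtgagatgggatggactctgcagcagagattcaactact
NM_001199933: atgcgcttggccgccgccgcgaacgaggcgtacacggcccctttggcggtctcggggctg

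In PRKAB1, NM_006253 held 93.3% of the gene's counts in control and 94.0% in 4HC. It had 378, 382 and 401 counts in control and 680, 673 and 742 in 4HC (log2 fold change 0.85, adjusted p = 0.00671, edgeR). For SESN2, the reads were divided equally by the authors' counting between NM_031459 on chromosome 1 and a copy of the same transcript on a patch scaffold, each with 679 ± 41.1 counts in control and 1093 ± 51.3 in 4HC (log2 fold change 0.68, adjusted p = 0.0118, edgeR). The 2 entries are 1 measurement, and the deposited start and end of SESN2 mix the scaffold with the chromosome and are not given here. In PRKAB2, NM_005399 had 1066, 1028 and 1038 counts in control and 1162, 1195 and 1184 in 4HC, groups that did not overlap (log2 fold change 0.18, adjusted p = 0.110, edgeR). The second PRKAB2 transcript above 10% of the gene's counts, XM_011509729, had 155 ± 72.2 and 103 ± 1.96 counts with overlapping groups. The transcript calls lay nearer to the threshold than the gene calls. Of the 4 calls, 1 was left without control replicate 1, control replicate 3 or 4HC replicate 2, 2 without 4HC replicate 1 or 4HC replicate 3, and 3 without control replicate 2. The log2 fold changes moved little in these fits, from 0.80 to 0.87 for NM_006253, from 0.65 to 0.73 for the SESN2 entries and from 1.00 to 1.06 for NM_001199933. The call of NM_001199933 passed in each of them, but with the replicate number as a block 0 of the 4 calls were left, NM_001199933 having an adjusted p of 0.0859 (edgeR).

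By shape over the 6 samples, the profile of SESN1 was most like those of SDC1, a heparan sulfate proteoglycan of the cell surface, RRM2, a subunit of ribonucleotide reductase, DDB2, a damage-recognition factor of nucleotide excision repair, POLH, a translesion polymerase, and ASTN2. Among 10372 genes that reached 5 CPM in one group or both, the root mean square difference in log2 CPM from SESN1, each profile set to a control mean of 0, was 0.0352 for SDC1, 0.0353 for RRM2, 0.0356 for DDB2, 0.0485 for POLH and 0.0508 for ASTN2. PRKAB1 ranked 7 in this order with 0.0601, SESN2 85 with 0.150 and DDIT4 3470 with 0.573. The 6 samples shared 1 contrast, so the measure mainly ranks genes by a like fold change.

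A reference list of DNA damage-induced genes rose as a whole. All 23, which do not include the members, were higher in 4HC (adjusted p under 0.05, edgeR), with a median log2 fold change of 0.78 and a range of 0.40 to 2.12. By the same criterion 19.2% of all tested genes were higher. The list was chosen with earlier results of these data known, so its rise is not an independent test. The stress hormone GDF15 rose by 2.12, the cell cycle inhibitor CDKN1A by 1.80 and the kinase PLK3 by 1.51 on the log2 scale. SESN1 (0.88) and PRKAB1 (0.84) were above the median of that list and SESN2 (0.68) was below it. Of genes on the IGF, AKT and mTORC1 axis, the AKT inhibitor PHLDA3 (log2 fold change 0.91), the fructose bisphosphatase TIGAR (0.39) and TSC2 (0.12) rose.

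The transcription factors known to drive sestrins or DDIT4 moved less and mostly downward, with 2 higher and 5 lower of 13 tested and a median of -0.10. ATF4, the effector of the integrated stress response, fell by 0.26 on the log2 scale, XBP1, of the unfolded protein response, by 0.35 and FOXO3 by 0.23, while DDIT3 (CHOP) rose by 0.25. Of 9 tested stress genes that accompany DDIT4 in the ATF4, hypoxia and glucocorticoid responses, 1 rose and 4 fell. The ATF4 targets CHAC1 and ASNS fell by 0.46 and 0.23 and the HIF1 target VEGFA by 0.26, whereas PER1, a glucocorticoid-responsive clock gene, rose by 0.19.

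Genes around the members in the pathway changed in both directions and by small amounts. Of 8 kinases and partners upstream of AMPK, 2 rose and 4 fell. The kinase STK11 (LKB1) rose by 0.29 and its pseudokinase partner STRADA by 0.35 on the log2 scale, while CAB39L, a scaffold of the same complex, fell by 0.32 and the kinase MAP3K7 by 0.26. Of 13 AMPK substrates, 3 rose and 3 fell, among them the Rab GTPase-activating protein TBC1D1 (0.32), the autophagy kinase ULK1 (0.28) and the fatty acid synthesis enzyme ACACA (-0.24). Of 5 genes of the TSC complex and RHEB, TSC2 rose by 0.12 and the GTPase RHEB fell by 0.13.

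Of 5 mTORC1 subunits, AKT1S1 (PRAS40) fell by 0.14 and 4, including MTOR and RPTOR, did not pass the test. In the GATOR1, KICSTOR and folliculin group 3 of 13 rose and 1 fell, with DEPDC5 at 0.22, FLCN at 0.18, CASTOR2 at 0.14 and KICS2 at -0.31. Of 5 subunits of GATOR2, the complex that sestrins bind, SEH1L fell by 0.14 and SEC13 by 0.11, and both are also nuclear pore proteins. Of 10 genes of the Rag and Ragulator complex on the lysosome, LAMTOR4 rose by 0.31, LAMTOR2 rose by 0.16 and RRAGA fell by 0.13. Of 9 tested mTORC1 substrates 3 rose and 3 fell, with ULK1 at 0.28, the translational regulator LARP1 at -0.20, the phosphatidate phosphatase LPIN1 at -0.19 and the S6 kinase RPS6KB1 at -0.19. None of the genes named from the upstream kinases, substrates, TSC, mTORC1, GATOR and Rag groups changed by as much as SESN2.

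In the KEGG category for mTOR signaling, as annotated in the deposited table, 27 of 131 tested genes rose and 24 fell, and 26 of 127 rose and 24 fell with the members left out. The largest changes in it among genes that reached 5 CPM were those of LPIN3, a lipin family phosphatase (1.02), SESN2 (0.68), RPS6KA1, the kinase RSK1 (0.64), and LPIN2 (0.39). In the KEGG category for AMPK signaling 20 of 100 tested genes rose and 28 fell, and 19 of 94 rose and 28 fell without the members. There PRKAB1 had the largest change (0.84), ahead of the desaturase SCD5 (0.70), the phosphatase regulatory subunit PPP2R3B (0.48) and the mitochondrial enzyme PCK2 (0.39). By the same criterion 19.2% of all tested genes rose and 17.1% fell. Falls were thus more frequent in the AMPK category than among all tested genes, a difference that was not tested. The median log2 fold change was 0.01 in the first category and -0.04 in the second, against 0.0047 over all tested genes.

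**Figure D4:**
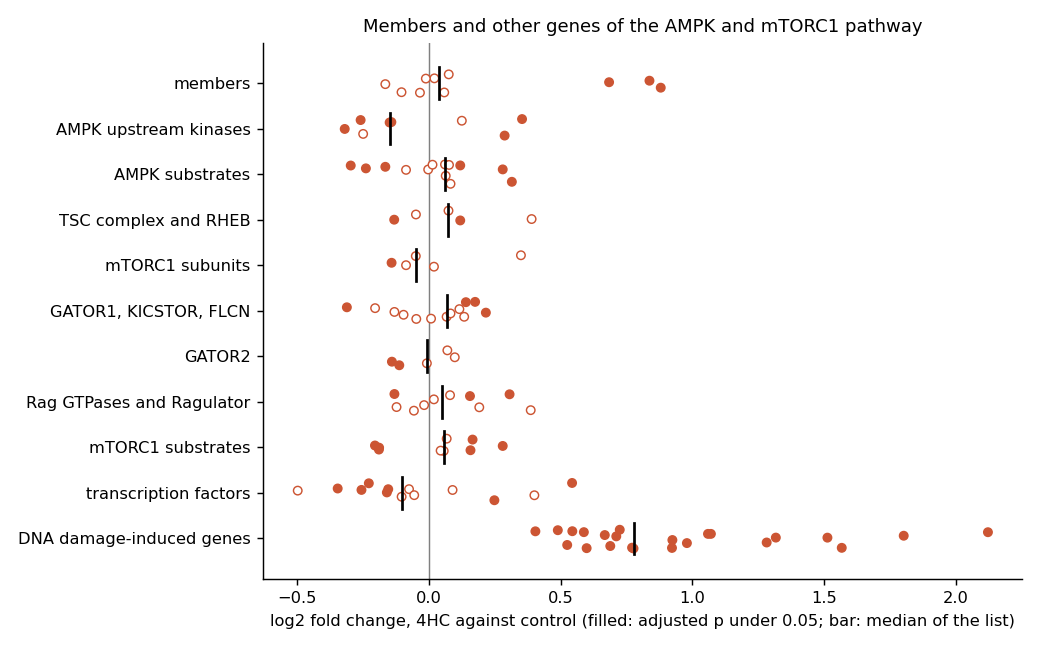
Log2 fold change of 4HC against control (horizontal axis) for each tested gene of the members and of 10 lists. Points are filled where the adjusted p was under 0.05, and the bar is the median of each list. The lists hold genes of the AMPK and mTORC1 pathway, transcription factors known to drive sestrins or DDIT4, and DNA damage-induced genes. The DNA damage-induced genes lie between 0.40 and 2.12, and the medians of the other lists lie between -0.15 and 0.07.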

How the data were processed

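The RNA-seq of 3 control and 3 4HC-treated COV434 samples was grouped by the sample titles. Per the labels, reads were filtered with SOAPnuke and analysed on the Dr. Tom system, and the submitters' processing notes name HISAT2, Bowtie2, RSEM 1.3.1, DESeq2 1.4.5 and GRCh38.p13. The authors deposited expected counts per gene and transcript, which are not normalized and of which 85.5% were whole numbers for genes. The authors also deposited TPM and FPKM values, scaled to length and depth. Deposited fold changes, p-values and q-values of the authors' own comparison were not used, and neither was a second gene table with the same values.

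After rounding, the expected counts entered edgeR 4.0.16 under R 4.3.3 (TMM, filterByExpr, quasi-likelihood test, condition as the only term), with Benjamini-Hochberg adjustment over 12368 genes or 42216 transcripts. The fit was checked on simulated data with 200 changed genes. CPM are TMM-normalized. Paralog ratios used log2(TPM + 0.1) and a two-sided exact permutation test. Intervals are at 95%, and 3 counts is the floor that a count of 0 allows, for counting error only. The totals of 16133786 to 16702316 per sample make 10 counts equal to about 0.620 CPM. Replicate pairs differed by more than sampling noise, with a chi-square per gene of 1.70 to 2.46.

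The members and lists were chosen with earlier results of these data known. Within each list, up to 4 genes with the largest change among those with an adjusted p under 0.05 and at least 5 CPM in either group were named, along with the cell markers, the 5 profiles nearest to that of SESN1, and transcripts with at least 10% of their gene's counts. MTOR, RPTOR, DDIT4 in the profile ranking, and PRKAG3 were named outside this rule after values were seen, and some genes that the rule selected are not reported here. As alternatives, the comparison was repeated with DESeq2 1.42.0, with the size factors of DESeq2 in edgeR, with library size only, with no filter, with at least 10 counts in every sample, with the replicate block, by limma 3.58.1 on log2 TPM (pseudocounts 1 and 0.1) and log2 FPKM (pseudocount 1), and with each sample left out in turn. Promoter windows came from RefSeq and transcript structures from GENCODE 29, and were compared as letters only. Protein levels were not analysed here.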

Additional observations from a re-analysis of the deposited data

How the results depend on the processing

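The calls of SESN1, SESN2 and PRKAB1 held in all 15 alternatives at the gene level, with log2 fold changes of 0.86 to 0.90, 0.65 to 0.73 and 0.79 to 0.86 and adjusted p-values of at most 2.99e-07, 1.05e-05 and 2.02e-06. The count of members called was 3 or 4, no alternative brought a member past a fold change of 2, and the count over all genes ranged from 3178 (DESeq2) to 4533 (at least 10 counts in every sample). PRKAA1 passed the threshold with DESeq2's size factors (-0.11, adjusted p = 0.0453, edgeR), with at least 10 counts in every sample (-0.11, adjusted p = 0.0478) and without 4HC replicate 3, its values ranging from -0.133 to -0.0754 over the fits that left out a sample. Its adjusted p over the 15 alternatives ranged from 0.0250 to 0.271. The near-zero changes turned sign for PRKAA2 (-0.0500 without control replicate 2, to 0.0854 without control replicate 1), for PRKAG1 with library size only (0.0095), with limma on log2 FPKM (0.0099) and without control replicate 1 (0.0143, range -0.0475 to 0.0143), and for PRKAG2 without control replicate 1 (0.0094, range -0.0834 to 0.0094). The cause was not tested.

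The number of member transcripts called was 1 to 3 when a sample was left out, against 4 with all samples. Transcripts turned sign without control replicate 2 for NM_006252 of PRKAA2 (-0.0849, range -0.0849 to 0.0967) and NM_002733 of PRKAG1 (-0.0224, range -0.0224 to 0.0521), without 4HC replicate 2 for NM_006252 (-0.0026), and without control replicate 3 for NM_014454 of SESN1 (0.0054, range -0.215 to 0.0054). The ratio of NM_001199933 to NM_014454, on the log2 scale, was higher in 4HC by 1.01 to 1.28 in the 6 fits that left out a sample, an alternative chosen after seeing the data. The paralog ratios kept their direction in all 9 alternatives.

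The deviations of same-numbered samples from their group means correlated at -0.07, -0.0048 and 0.13, and those of differently numbered samples at -0.186 to 0.197. No pairing by number was seen, but with 3 samples per group these values cannot decide whether the samples were paired. With the number as a replicate block, 3 members and 4213 genes were called and 0 member transcripts, with no member call changed at the gene level. The adjusted p of NM_001199933 was 0.0859 with the block, on fewer residual degrees of freedom.

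The depth was sufficient for all members, of which SESN3 had the lowest counts, but limited rarer transcripts such as those of PRKAG2, of which 7 of 21 were tested. Groups of 3 cannot give an exact permutation p under 0.1, and outlying samples were not tested in them.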

Other observations

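The gene table listed SESN1, SESN3, PRKAA1 and PRKAG2 on the plus strand, whereas RefSeq places these 4 genes on the minus strand. Whether the counting used strand was not given in the sources used here.

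PRKAG2 was the member whose reads were spread over the most transcripts, with 21 in the table. Its leading transcript, NM_024429, held 36.3% of the gene's expected counts in control and 34.1% in 4HC. NM_001304527 had 0, 9.26 and 21.82 expected counts in control and 40.47, 16.62 and 34.6 in 4HC, with overlapping groups, and did not pass the test (log2 fold change 1.56, adjusted p = 0.899, edgeR). That log2 fold change was 0.98 without control replicate 1 and 2.72 without control replicate 3.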
